A study of Homo sapiens with 4 samples.

Results

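The SMAD genes and the ID genes ID1 and ID3 were followed in H23 cells, an established human lung cancer line, labelled as overexpressing SOX7 or, as controls, GFP. SOX7 is a transcription factor of the SOXF subfamily, and GFP is an inert fluorescent protein. The members are the 8 human SMAD genes SMAD1, SMAD2, SMAD3, SMAD4, SMAD5, SMAD6, SMAD7 and SMAD9 together with ID1 and ID3, 10 of the 20046 named genes on the array. They were chosen by name, as a family with 2 of its target genes, while the differences between SOX7 and control arrays were already known. Those differences are therefore given below as a description, with no test, and calls of members are given once, beside the share of all genes called. The 10 genes carried 18 probes: SMAD3, SMAD4, SMAD6 and ID3 had 1 probe each, and the other 6 genes had 2 or 3.

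The arrays comprised 2 samples of H23 cells overexpressing SOX7 and 2 samples of H23 cells overexpressing GFP. All were grown to near confluence before polyA RNA was taken and read on Illumina HumanHT-12 v4 BeadChips, bead arrays that carry short transcript probes. The labels leave out both how SOX7 was introduced and whether replicates were grown as separate cultures. Spreads and p-values therefore cover only the variation between these samples, possibly technical. The study's design also names H1299 and PC14 cells, which were not analysed here.

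SMAD proteins carry the signal of the transforming growth factor beta (TGF-beta) superfamily from the membrane to the nucleus. Receptors for TGF-beta and activin phosphorylate SMAD2 and SMAD3, while receptors for bone morphogenetic proteins (BMPs) phosphorylate SMAD1, SMAD5 and SMAD9. The phosphorylated SMADs join the common partner SMAD4 and bind DNA. SMAD6 and SMAD7 are inhibitory members that are induced by the same signals and feed back on receptors and receptor-activated SMADs. ID1 and ID3 are classic early targets of BMP signalling. Their proteins have a helix-loop-helix but no DNA-binding basic region, so they hold E proteins in inactive pairs.

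The promoters of SMAD6, ID1 and ID3 are shown because these 3 genes are feedback or target genes of the pathway and lay on opposite sides of the controls in the SOX7 arrays. Each sequence is the 250 bases before the RefSeq start (build GRCh38.p14), written in the direction of transcription. Capitals mark matches on either strand to GTCT, the short SMAD box, to its palindrome GTCTAGAC, to the longer SMAD motif GGCGCC, and to AACAAT, the core bound by SOX factors. SMAD6 lies at chr15:66701986-66702235 on the + strand, ID1 at chr20:31605039-31605288 on the + strand and ID3 at chr1:23559502-23559751 on the - strand.
SMAD6: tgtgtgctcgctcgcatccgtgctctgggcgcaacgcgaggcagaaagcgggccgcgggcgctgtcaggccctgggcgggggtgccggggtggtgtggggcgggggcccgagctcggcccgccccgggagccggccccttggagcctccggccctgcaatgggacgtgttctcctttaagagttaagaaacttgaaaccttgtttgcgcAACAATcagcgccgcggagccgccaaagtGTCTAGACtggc
ID1: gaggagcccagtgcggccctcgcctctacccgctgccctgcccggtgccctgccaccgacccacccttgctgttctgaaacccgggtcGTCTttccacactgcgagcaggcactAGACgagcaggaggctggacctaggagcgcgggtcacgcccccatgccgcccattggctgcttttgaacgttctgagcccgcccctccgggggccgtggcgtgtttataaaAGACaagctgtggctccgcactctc
ID3: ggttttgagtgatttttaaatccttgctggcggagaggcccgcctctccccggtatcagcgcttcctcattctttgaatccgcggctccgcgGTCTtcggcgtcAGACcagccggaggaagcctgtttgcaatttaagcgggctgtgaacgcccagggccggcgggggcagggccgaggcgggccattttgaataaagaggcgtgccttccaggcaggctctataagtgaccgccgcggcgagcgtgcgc

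The SMAD6 window held the palindrome 12 bases before the start, made up of its 2 short boxes, and AACAAT 41 bases before the start. The palindrome was found in 0.182% and AACAAT in 8.98% of 35116 RefSeq windows of the same length. Both motifs were picked with this sequence in view, and a match describes letters only. ID1 held 3 short SMAD boxes and ID3 held 2, a motif present in 77.5% of all windows. All 10 genes had at least 1 window, 21 in all, and SMAD6 was the 1 gene among them with the palindrome or with AACAAT. The motif GGCGCC, present in 16.4% of all windows, was found in windows of SMAD1, SMAD2, SMAD3 and SMAD4.

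All values are the deposited log2 intensities, and each probe was compared only with itself across arrays. The arrays correlated at r = 0.995 within each group and at 0.990 between groups over all 48107 probes. Of 8 markers of lung epithelial carcinoma, 4 lay at or above the median of all probe means (6.25), namely KRT18, KRT8, EPCAM and KRT7, while CDH1, KRT19, NAPSA and NKX2-1 lay below it. KRT18 rose by 0.45 (limma adjusted p = 0.00453), and the summed linear intensity of this list was 1261 to 1270 in SOX7 arrays and 1065 to 1073 in GFP control arrays. None of 5 endothelial markers reached the median, with sums of 292 to 316 in SOX7 and 328 to 335 in GFP control arrays. Of 3 leukocyte markers with a probe, CD14 lay above the median and rose by 0.64 (limma adjusted p = 4.82e-04), the list summing to 844 to 913 in SOX7 and 609 to 615 in GFP control arrays, while PTPRC and CD3E lay below it. Of 4 fibroblast markers COL1A1 and LUM lay above it and LUM rose by 0.52 (limma adjusted p = 0.00156), its control arrays lying below the median, with sums of 334 to 338 in SOX7 and 312 to 319 in GFP control arrays. The part of these markers in the results was not tested. The brighter SOX7 probe read 6.53 and 6.78 in SOX7 arrays and 6.18 and 6.45 in GFP control arrays (limma adjusted p = 0.0583). The second SOX7 probe read 6.24 and 6.38 in SOX7 arrays and 6.28 and 6.33 in GFP control arrays, which overlap. Neither probe thus showed a change past the threshold, and it is unknown here whether either lies in the introduced transcript.

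The members did not move as 1 block. Among the 10 genes, taken at the probe with the highest mean, SMAD6 and SMAD5 were lower in SOX7 cells, ID3 was higher, and the arrays of the TGF-beta branch and its common partner overlapped. Values of the SOX7 and GFP control arrays had no overlap for 7 of the 10 genes, 6 of them lower and 1 higher in SOX7 cells, as was the case for 58.5% of the 12804 genes tested. In the limma fit over all these genes, 3 members passed an adjusted p of 0.05, SMAD5 and SMAD6 lower and ID3 higher, against 18.8% of genes in all, 8.98% higher and 9.83% lower. The ID3 call was lost without the filter on low values and when any 1 of the 4 arrays was left out. Nothing is read from these shares or calls, since the members were picked with the contrast known. The median difference of the 10 genes was -0.15 and their median absolute difference 0.17, beside 0.0035 and 0.13 over the genes tested. All 10 genes reached the filter of the fit, a mean at or above 6.25, through their brightest probe. In RNA from whole cultures, fewer cells with a transcript and less transcript per cell cannot be told apart.

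**Figure D1:**
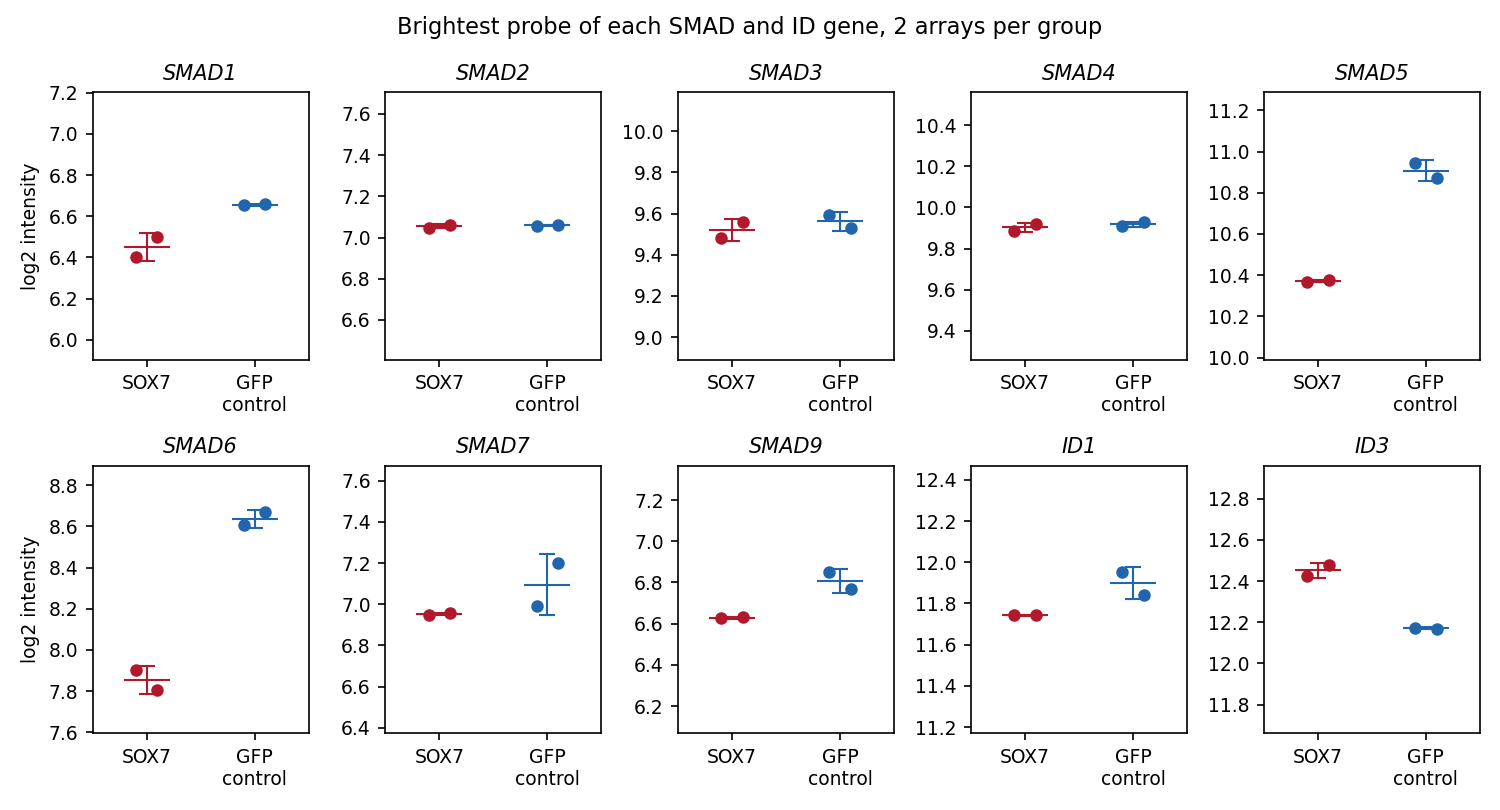
Log2 intensity of the brightest probe of each of the 10 genes, with SOX7 arrays on the left and GFP control arrays on the right of each panel, points for single arrays and bars for mean ± SD (n = 2). Every panel spans the same range of log2 units, and the separation is widest for SMAD6 (7.85 against 8.64) and SMAD5 (10.37 against 10.91).

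The widest difference among the members was that of SMAD6, 1 of the 2 inhibitory SMADs. SMAD6, which preferentially restrains BMP receptors and their SMADs, read 7.90 and 7.81 in SOX7 arrays, against 8.61 and 8.67 in GFP control arrays. Both SOX7 arrays lay well under both controls, with a gap of 0.70 between the nearest arrays of the groups, while the arrays within a group lay within 0.1 log2 units of each other. Its mean was 7.85 ± 0.070 in SOX7 cells and 8.64 ± 0.044 in GFP control cells (SD, n = 2 each), a difference of -0.78 (SE 0.089) or 1.72-fold lower. Of the genes tested, 1.97% differed by more in either direction. This share, like those given for SMAD5 and ID1 below, is a description and not a test, since the members were picked with the contrast known. SMAD6 had 1 probe, ILMN_1767068, so no second probe checks it. Leaving out each array in turn gave -0.83 to -0.73.

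SMAD7, which blocks both branches and recruits ubiquitin ligases to the receptors, stood apart from SMAD6. Its brighter probe read 6.95 and 6.96 in SOX7 arrays, against 6.99 and 7.20 in GFP control arrays. The SOX7 arrays were lower, but 1 control lay only 0.034 above them and the controls differed from each other by more than that. Its mean difference was -0.14 (SE 0.096), and it became -0.037 without GFP control replicate 2. The second SMAD7 probe read 6.49 and 6.70 in SOX7 arrays and 6.53 and 6.96 in GFP control arrays, which overlap.

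The SMADs of the BMP branch differed by unequal amounts at their brightest probes. SMAD5, a receptor-activated SMAD of this branch, read 10.37 and 10.38 in SOX7 arrays, against 10.94 and 10.87 in GFP control arrays. The groups were separated by 0.49, and the SOX7 arrays were almost identical. The mean was 10.37 ± 0.0066 in SOX7 cells and 10.91 ± 0.052 in GFP control cells (SD, n = 2 each), a difference of -0.53 (SE 0.087) or 1.45-fold lower, and 5.32% of the genes tested differed by more. A second SMAD5 probe, ILMN_2371984, read 6.49 and 6.51 in SOX7 arrays and 7.19 and 6.61 in GFP control arrays, again lower in both SOX7 arrays but with controls far apart (SD 0.41). The third, ILMN_1761994, lay below the median of the array and overlapped, at 5.90 and 6.09 in SOX7 and 6.005 and 5.95 in GFP control arrays. Taken as the mean of its 3 probes the SMAD5 difference was -0.31, with the dim probe included.

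SMAD1, like SMAD5 a receptor-activated SMAD of the BMP branch, read 6.40 and 6.50 in SOX7 arrays, against 6.65 and 6.66 in GFP control arrays. SMAD9, the third of these SMADs, read 6.63 and 6.63 in SOX7 arrays, against 6.85 and 6.77 in GFP control arrays. Neither gene's groups overlapped, with differences of -0.20 (SE 0.088) for SMAD1 and -0.18 (SE 0.087) for SMAD9. The mean of both SMAD9 probes gave -0.14. Both genes lay close to the middle of the array, at the 65.9th and 69.6th percentile of probe means. Their second probes lay below the median of the array and overlapped between groups, with differences of 0.0099 for SMAD1 and -0.090 for SMAD9.

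The TGF-beta branch and the common partner showed no separation between the groups. SMAD2 read 7.05 and 7.06 in SOX7 arrays, against 7.06 and 7.06 in GFP control arrays. SMAD3 read 9.48 and 9.56 in SOX7 arrays, against 9.59 and 9.53 in GFP control arrays. SMAD4, shared by both branches, read 9.89 and 9.92 in SOX7 arrays, against 9.91 and 9.93 in GFP control arrays. In all 3 genes the arrays of the groups overlapped. The differences were -0.0040 for SMAD2, with a 95% confidence interval of -0.19 to 0.18, -0.043 for SMAD3 (-0.23 to 0.15) and -0.016 for SMAD4 (-0.20 to 0.17). These intervals rest on the same moderated SEs. They give the shifts compatible with the 4 arrays under that fit, not the smallest shift that could be detected. The other 2 SMAD2 probes lay below the median of the array, overlapped and differed by 0.071 and -0.056.

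**Figure D2:**
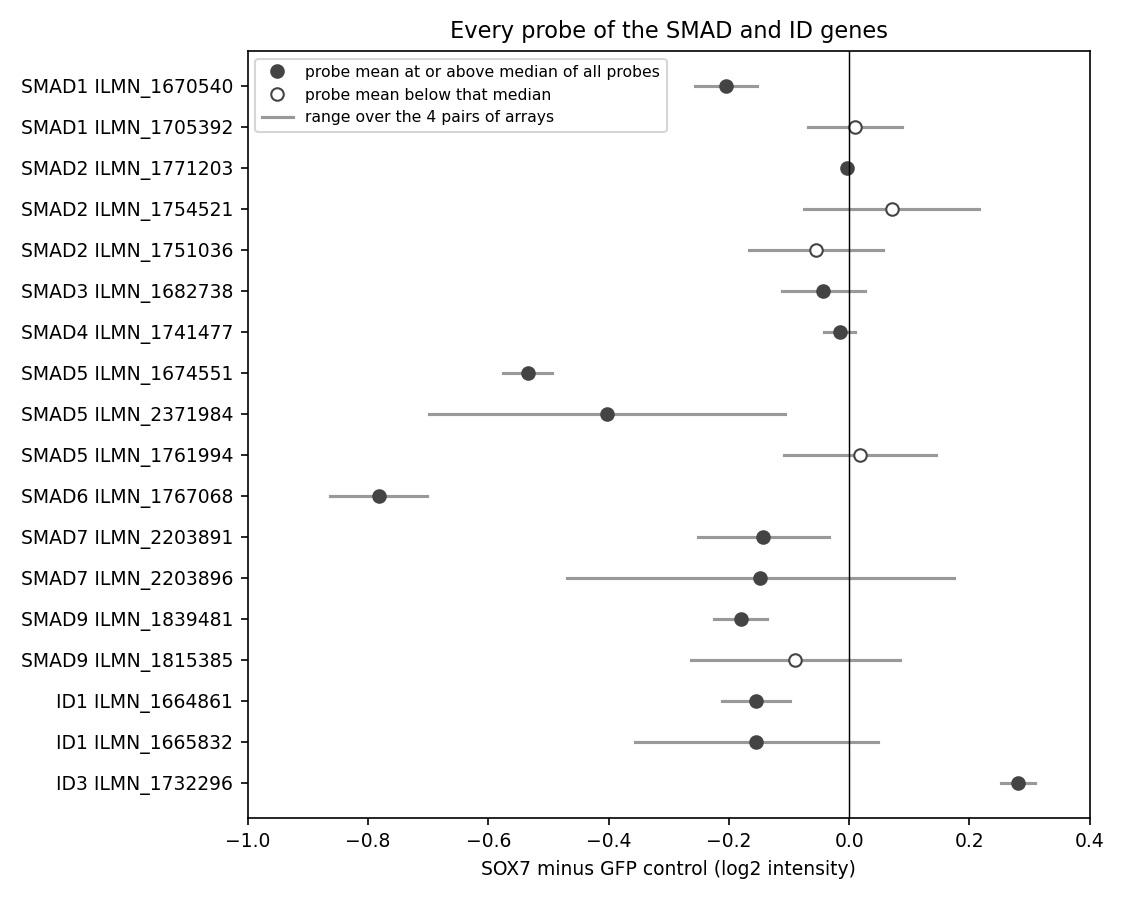
Difference between SOX7 and GFP control means for each of the 18 probes on the log2 scale, with a line over the 4 differences between single SOX7 and single control arrays. The 5 open points, probes below the median of all probes, all have lines that cross 0, as do the lines of 5 filled points, while 7 lines lie wholly below 0 and 1, that of ID3, wholly above it.

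ID1 and ID3 lay on opposite sides of the controls. ID3 read 12.43 and 12.48 in SOX7 arrays, against 12.17 and 12.17 in GFP control arrays. Both SOX7 arrays were higher, by at least 0.25, and this was the 1 probe of the 18 with that order. Its mean was 12.45 ± 0.036 in SOX7 cells and 12.17 ± 0.0045 in GFP control cells (SD, n = 2 each), a difference of 0.28 (SE 0.086) or 1.21-fold. Leaving out each array in turn gave 0.26 to 0.31.

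ID1 read 11.74 and 11.74 in SOX7 arrays, against 11.95 and 11.84 in GFP control arrays. The groups did not overlap, the SOX7 arrays being lower by 0.099 at the nearest, and the mean difference was -0.15 (SE 0.088), which 43.9% of the genes tested exceeded in size. A second, dimmer ID1 probe gave the same difference of -0.15, with overlapping arrays at 6.76 and 6.54 in SOX7 and 6.71 and 6.89 in GFP control cells. ID1 and ID3 are among the brightest features of the array, at the 97.5th and 98.2nd percentile. ID2, a further gene of the family singled out after its values were seen, read 10.09 and 10.18 in SOX7 arrays and 10.03 and 9.99 in GFP control arrays (difference 0.12, limma adjusted p = 0.367). ID4 lay below the filter.

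Position was the next feature that the choice of members did not use. SMAD6 and SMAD3 are next to each other among the tested genes of chromosome 15, and SMAD2, SMAD7 and SMAD4 all lie on chromosome 18. The 100 tested genes around SMAD6 had a median difference of 0.0028, with 4 past the threshold higher and 7 lower, and its other neighbour ZWILCH differed by 0.090 (limma adjusted p = 0.589). Around SMAD2, SMAD7 and SMAD4, whose windows overlap and are not separate observations, the medians were 0.053, 0.055 and 0.080. In these windows 19 or 20 of 100 genes were higher and 2 lower. Over all genes tested, 8.98% were higher and 9.83% lower. Among the genes beside SMAD2, SKOR2, which encodes a corepressor related to SKI, rose by 0.31 (limma adjusted p = 0.0318). With neighbours removed, SMAD4 moved to -0.094. ID1 lay among genes on chromosome 20 with a median of -0.042, 7 higher and 15 lower, and its neighbour HM13 fell by 0.47 (limma adjusted p = 0.00759). Neighbour-centred differences were -0.78 for SMAD6, -0.57 for SMAD5, 0.29 for ID3, -0.26 for SMAD1 and -0.11 for ID1.

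**Figure D3:**
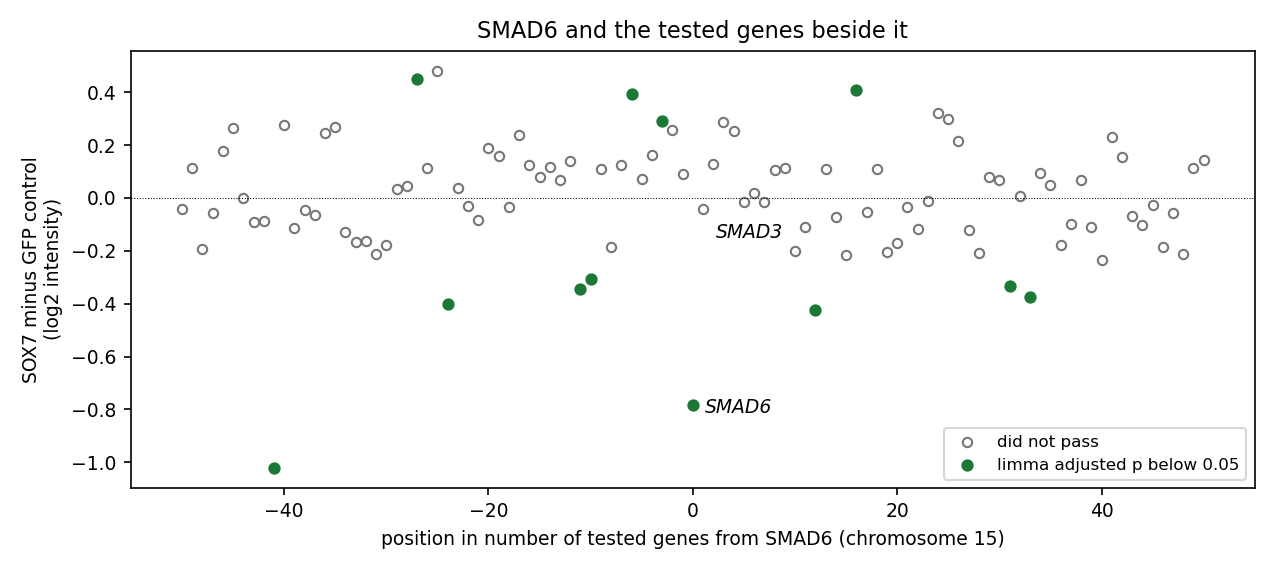
Log2 difference between SOX7 and GFP control cells of SMAD6 and the 50 tested genes on either side, in their order along chromosome 15, with filled points for genes past the threshold. SMAD6 at -0.78 lies far under the genes next to it, while SMAD3, the next tested gene, sits at -0.043; 1 gene of the stretch, TPM1, lay lower (-1.02).

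The 3 genes whose 4 array values, centred on the gene mean, lay nearest to those of SMAD6 were FZD2, CYBRD1 and IRX3, at Euclidean distances of 0.034, 0.040 and 0.048. FZD2, a Wnt receptor, read 7.64 and 7.55 in SOX7 arrays and 8.39 and 8.41 in GFP control arrays. CYBRD1, a membrane ferric reductase, differed by -0.75, and IRX3, a homeobox transcription factor, by -0.82. With 4 arrays such likeness is a description only.

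Other genes of the pathway, in 9 lists by role, were tested in the same fit. Of 147 genes, 141 had a named probe and 98 reached the filter. Among these 98, 14 rose and 12 fell in SOX7 cells, which is 26.5%, beside 18.8% of all genes tested, and the median difference was 0.029. The 14 include HEY1 and GATA3, which reached the test only through their SOX7 arrays. So did INHBE, BMP2, BMP3 and NEDD9 among the 98, while COL1A2 reached it only through its control arrays, and none of these passed. The lists were chosen with earlier results of these data known, so neither this share nor that of any list is read as a result. BAMBI stands in 3 of the lists and LTBP2 in 2.

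Of 6 tested BMP and GDF ligands, 2 rose and 0 fell (median 0.11), or 33.3% beside 18.8% of all genes tested. The 6, the median and the 33.3% include BMP2 and BMP3, whose control means (6.20 and 6.22) lay below the filter. These genes reached the test only through their SOX7 arrays and did not pass, and the median lies between their differences (0.114 and 0.116). BMP5 read 9.04 and 9.30 in SOX7 arrays and 8.56 and 8.54 in GFP control arrays, a rise of 0.62 (SE 0.10, limma adjusted p = 0.00128), and BMP6 rose by 0.57 (SE 0.088, limma adjusted p = 8.64e-04). Both encode secreted ligands that signal through SMAD1 and SMAD5. Of 5 tested TGF-beta and activin ligands, 0 passed (median -0.12), and 2 of the 5 had an unadjusted p under 0.05. The smallest p were those of INHBE (0.21, limma adjusted p = 0.108) and TGFB2 (-0.24, adjusted p = 0.133). INHBE read 6.43 and 6.39 in SOX7 arrays and 6.19 and 6.21 in GFP control arrays. Its control arrays lay below the filter, so it reached the test only through its SOX7 arrays (without the filter, limma adjusted p = 0.201). The 5, their median and the 2 include INHBE.

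Of 11 tested receptors and co-receptors, 0 rose and 3 fell (median -0.014), or 27.3% beside 18.8% of all genes tested. TGFBR3, the co-receptor betaglycan, read 7.82 and 7.67 in SOX7 arrays and 8.74 and 8.70 in GFP control arrays, a difference of -0.97 (SE 0.091, limma adjusted p = 2.18e-05). ENG, the co-receptor endoglin, fell by 0.37 (limma adjusted p = 0.0116) and ACVR1, a type I receptor for BMPs, fell by 0.35 (limma adjusted p = 0.0179). The calls of ENG and ACVR1 were lost without SOX7 replicate 2 (adjusted p = 0.0582 and 0.111) and without GFP control replicate 1 (adjusted p = 0.0503 and 0.0951).

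Antagonists moved in both directions. Of 13 tested ligand antagonists and latency proteins, 2 rose and 2 fell (median 0.014), 30.8% in all. BAMBI, a membrane decoy without a kinase domain that is itself induced by BMP and TGF-beta, read 8.29 and 8.19 in SOX7 arrays and 7.37 and 7.48 in GFP control arrays, a rise of 0.82 (SE 0.091, limma adjusted p = 7.90e-05). LTBP2, a matrix protein related to the latent TGF-beta binding proteins, rose by 0.42 (limma adjusted p = 0.00528). NBL1, a secreted BMP antagonist, fell by 0.77 (limma adjusted p = 7.60e-04), with a second probe at -0.82. FSTL3, a follistatin-like protein that binds activin, fell by 0.71 (limma adjusted p = 1.53e-04).

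Of 14 tested ubiquitin enzymes and phosphatases that act on SMADs or receptors, 2 rose and 1 fell (median 0.033), or 21.4% beside 18.8% of all genes tested. The deubiquitinases UCHL5 (0.33, limma adjusted p = 0.0216) and USP15 (0.31, adjusted p = 0.0311) rose, and the phosphatase PPM1A fell (-0.29, adjusted p = 0.0370). None of the 3 calls held with neighbours removed (adjusted p = 0.0558, 0.198 and 0.0781) or without the filter on low values (0.0507, 0.0688 and 0.0809). Each was also lost without SOX7 replicate 1 (0.0983, 0.0774 and 0.130), without SOX7 replicate 2 (0.0672, 0.140 and 0.108) and without GFP control replicate 1 (0.0958, 0.174 and 0.172), and that of PPM1A without GFP control replicate 2 (0.0563). The other 4 PPM1A probes differed by -0.058 to 0.23, with none passing. For the mean of a gene's probes the calls of USP15 and PPM1A were also lost (adjusted p = 0.130 and 0.855). Of 13 tested co-regulators and anchors, 1 rose and 0 fell (median 0.099), or 7.69%, namely RUNX3, a transcription factor that binds SMADs (0.61, limma adjusted p = 0.00224). TOB1, a protein that restrains BMP SMADs, differed by -0.26 (adjusted p = 0.0508; its alternatives gave 0.0197 to 0.163). The 3 E proteins that ID proteins bind did not pass (median 0.11, 1 with an unadjusted p under 0.05), with differences of -0.22 for TCF4 (limma adjusted p = 0.109) and 0.17 for TCF12 (adjusted p = 0.259).

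Target genes of BMP and of SMAD1 and SMAD5 included the widest rise among the pathway genes. Of 15 tested, 5 rose and 1 fell (median 0.13), or 40% beside 18.8% of all genes tested. The 5, the median and the 40% include HEY1 and GATA3, which entered the test only through their SOX7 arrays. TNFRSF11B, which encodes the decoy receptor osteoprotegerin, read 10.11 and 9.998 in SOX7 arrays and 8.34 and 8.43 in GFP control arrays, a rise of 1.67 (SE 0.091, limma adjusted p = 2.53e-07). The homeobox gene MSX1 rose by 0.82 (limma adjusted p = 5.08e-05), again with BAMBI among the genes that rose. The other 2 genes called higher, HEY1 and GATA3, had control arrays below the filter of 6.25 and reached the test only through their SOX7 arrays, so they are given as values (without the filter, limma adjusted p = 6.59e-05 and 0.00424). HEY1, a bHLH repressor shared with Notch signalling, read 7.07 and 7.22 in SOX7 arrays and 6.11 and 6.18 in GFP control arrays, and its second probe differed by -0.036. GATA3, a transcription factor gene, read 6.68 and 6.58 in SOX7 arrays and 6.14 and 6.02 in GFP control arrays. ATOH8, a bHLH factor induced by BMPs, fell (-0.76, limma adjusted p = 5.15e-04), with SOX7 arrays at 6.32 and 6.54, close to the filter.

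Targets of TGF-beta and of SMAD2 and SMAD3 moved in both directions. Of 25 tested, 5 rose and 5 fell (median 0.065), likewise 40%. The 25, the median and the 40% include NEDD9, which reached the test only through its SOX7 arrays (control mean 6.22). They also include COL1A2, which reached it only through its control arrays (SOX7 mean 6.21). ANGPTL4, a secreted inhibitor of lipoprotein lipase, read 11.93 and 11.75 in SOX7 arrays and 13.10 and 13.19 in GFP control arrays, a change of -1.31 (SE 0.095, limma adjusted p = 3.17e-06), with its other 2 probes at -0.95 and -0.30. BHLHE40, a bHLH repressor, fell (-0.61, limma adjusted p = 6.15e-04), as did PMEPA1, a membrane protein that holds back SMAD2 and SMAD3 (-0.48, adjusted p = 0.00277). PMEPA1 did not pass for the mean of its 4 probes (-0.24, adjusted p = 0.0565). COL4A1, a basement membrane collagen gene, rose (0.53, limma adjusted p = 0.00113), along with BAMBI and LTBP2.

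**Figure D4:**
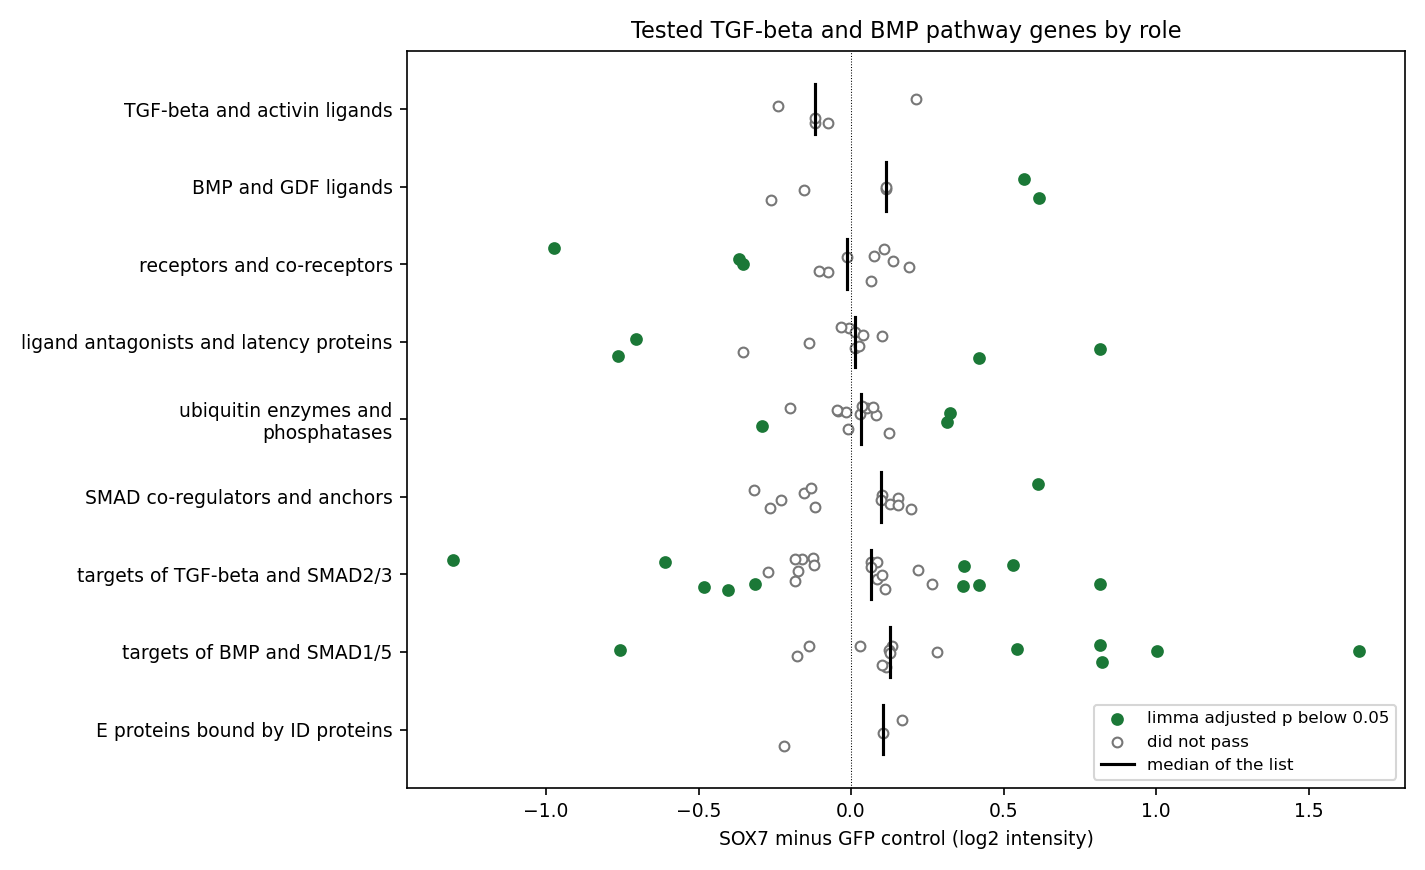
Log2 difference between SOX7 and GFP control cells for each tested gene of the 9 role lists, with filled points past the limma threshold and a black bar at the median of each list. Medians run from -0.12 for TGF-beta and activin ligands to 0.13 for BMP targets, and the widest points are TNFRSF11B (1.67) and ANGPTL4 (-1.31).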

How the data were processed

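The deposited table holds log2 intensities of 48107 probes on 4 arrays, between 5.21 and 15.9. Once sorted, the 4 columns were equal to within 6.83e-04, so the authors' values are quantile normalized between arrays. Software and background correction are not stated in what was used here, and no detection p-values were used. Per the labels, polyA RNA was isolated with RNeasy columns and biotin-labelled. The number of arrays limits the precision.

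Probes were named by the platform's annotation, with 30113 carrying 1 gene, 8 several and 17986 none; identifiers of 30074 were found in RefSeq (GRCh38.p14). The probe with the highest mean stood for each of 20046 genes, and genes with a mean at or above the median of all probe means (6.25) were tested, 12804 in all. limma 3.58.1 (R 4.3.3, statmod 1.5.0) compared SOX7 with GFP control arrays, by a two-sided test, adjusted p-values (Benjamini-Hochberg) being taken over the 12804 genes and called below 0.05 (residual degrees of freedom 2, moderated 11.7). An exact permutation of 2 against 2 arrays cannot give a p under 0.333, so none was run. Differences are SOX7 minus GFP control on the log2 scale. Neighbour-centred values have the median of the 101 tested genes around a gene removed.

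The members and lists were chosen with earlier results of these data known, and the motifs after the sequences were seen. The text names all members, up to 6 genes with the smallest p among those past the threshold in each list, or 2 where fewer than 2 passed, the genes beside each member where they bear on it, and the 3 genes most like SMAD6. Promoter windows are those of RefSeq.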

Additional observations from a re-analysis of the deposited data

How the results depend on the processing

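The number of genes past the threshold was 2408, and 26 of the 98 tested pathway genes were among them. Leaving out 1 array gave 1486 to 1937 genes, with 1486 without SOX7 replicate 2 and 1575 without SOX7 replicate 1, and 19 to 26 pathway genes; the lone array left in a group is taken to vary as the other group does. The other alternatives were no filter, a filter at the 75th percentile, the mean of probes, every probe on its own, a trend and robust prior, an offset of 16, median centring, and removal of neighbours. They gave 1775 to 2914 genes and 21 to 29 pathway genes, except that taking every probe on its own gave 2916 probes, not genes, and 26 pathway genes. With the replicate number as a block, 2834 genes and 31 pathway genes passed; samples with the same number did not deviate together (r = -0.017 over the genes tested), and the labels give no sign that the numbers pair samples. No member or named pathway gene that had passed reversed its direction under any of these settings. Among member values, 6 moved by more than the spread between replicates and 119 did not. Most of these values were bound to stay. Changing the filter, taking probes singly, the prior, the block and median centring leave a difference, and so its direction, as it was. Leaving out 1 array cannot shift a difference past that spread. The 119 is therefore no measure of stability. Of the values of named pathway genes, 317 kept their side of the threshold, 23 lost the call and 5, all of TOB1, gained it. Median centring left every adjusted p of these genes as it was, since the arrays were already quantile normalized. The 317 is therefore no measure of stability either. No detection measure was used, so the dim probes of SMAD1, SMAD2, SMAD5 and SMAD9 cannot be told from background.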
